A study of Mus musculus with 20 samples.

Results

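The step from day 3 to day 5 of reprogramming under Ddx10 shRNA was described by setting the 2 shDdx10 libraries of day 5 against the 2 shDdx10 libraries of day 3, which are 4 of the 20 libraries of the series, across all 15757 genes of the table. The libraries were chosen by their labels alone. All cells were passage 2 embryonic fibroblasts of OG2 mice, infected with retroviruses made in Plat-E packaging cells that carried the reprogramming factors Oct4, Sox2, Klf4 and Myc (OSKM), and then kept in iCD1 medium, which was renewed daily. The shDdx10 arm also received shRNA against Ddx10. The shLuci arm, the control, received an shRNA against luciferase, a firefly enzyme that mouse cells lack, and its day 5 and day 3 libraries (2 each) were used to ask whether the step differed between arms. Both arms, the controls included, thus carried the 4 factors, and both were sampled at days 0, 1, 3, 5 and 7 in bulk. The number of Ddx10 hairpins is not given in the sources used here. The labels do not say whether replicates were separate cultures, so the spread that the p-values rest on may be technical.

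When the 4 factors are expressed in fibroblasts, the cells first lose contractile and matrix genes and gain epithelial junctions, a mesenchymal-to-epithelial transition, and later switch on their own pluripotency genes such as Nanog and Esrrb. Ddx10 is a DEAD-box RNA helicase known from yeast and human cells for its part in assembling the small ribosomal subunit in the nucleolus. The title of the series describes Ddx10 as a positive regulator of reprogramming.

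Levels below are the authors' normalized read counts, which are not divided by gene length, and changes are log2 differences of day 5 minus day 3 on the log2(value + 1) scale, which understates the changes of low genes. The 4 libraries summed to 15.8 to 16.5 M and had a depth, estimated from the spacing of the low values, of 14.03 M reads (day 5, replicate 1) to 23.59 M reads (day 5, replicate 2), with 17.3 and 18.4 M at day 3. Replicates of day 5 differed by a median of 0.134 on the log2 scale and those of day 3 by 0.123, within the range of the 10 groups (0.118 to 0.252). The fibroblast origin showed in the day 0 libraries of the arm, where Col1a1, a chain of type I collagen, stood at 135780 and 145812. Fewer cells of a type and less RNA per cell cannot be told apart in bulk samples.

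Of the 15757 genes, 1216 (7.72%) rose and 1135 (7.20%) fell at an adjusted p under 0.05 (limma), 2351 in all (14.9%), and 4391 had an unadjusted p under 0.05. Rises were the larger changes: 577 genes rose and 118 fell by more than 1 on the log2 scale, 258 rose and 14 fell by more than 2, and 66 rose and 1 fell by more than 3. The median change over all genes was 0.01. With each of the 4 libraries left out in turn, 605 to 659 genes rose and 538 to 623 fell (each such fit assumes that the remaining library varies like the other groups). The genes nearest to the threshold were Ifrd1, Tgfbr2 and Disp1 inside it (adjusted p = 0.0498, 0.0499 and 0.0499) and Sp100, Ap5m1 and Dis3 outside it (adjusted p = 0.0501 for each).

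Ddx10 itself (ENSMUSG00000053289, mm10 chromosome 9, 53098635 to 53248053, minus strand) checks the labels. It stood at 426 and 455 in the shDdx10 libraries of day 5 and at 306 and 355 in those of day 3, against 796 and 729 in the shLuci libraries of day 5 and 803 and 841 in those of day 3. Every knockdown library lay below every control library. Within the knockdown arm Ddx10 was higher at day 5 by 0.42 ± 0.12 (SE, adjusted p = 0.0243, limma), while its control step was -0.11 (adjusted p = 0.509). The step differed between arms by 0.53 (adjusted p = 0.239). The call was lost without day 3 replicate 1 (adjusted p = 0.209), day 5 replicate 1 (0.0701) or day 5 replicate 2 (0.148).

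The 12 largest rises, taken from called genes that averaged 50 or more and whose days did not overlap, were genes of varied roles. Mylpf, a regulatory light chain of fast skeletal muscle myosin (chromosome 7), stood at 115 and 170 at day 5, against 2.58 and 2.43 at day 3, a change of 5.33 ± 0.67 (SE, adjusted p = 0.000103). Bpifb5, of the lipid-binding BPI fold family, stood at 193 and 197 at day 5, against 9.51 and 9.89 at day 3 (change 4.20). Bhmt, which remakes methionine from homocysteine with betaine, stood at 333 and 263 at day 5, against 10.1 and 22.99 at day 3 (change 4.18). That the days do not overlap in these genes follows from how they were chosen. Cd74, the invariant chain of MHC class II, stood at 167 and 235 at day 5, against 11.6 and 9.16 at day 3 (change 4.14). The potassium channel Kcnk1 (4.04), the glycerophosphodiesterase Gdpd2 (4.0), the neuronal membrane protein Sez6 (3.90), the tissue kallikrein Klk1 (3.73) and Foxj1, the transcription factor of motile cilia (3.70), followed. Cldn4, a tight junction claudin (3.68), H2-Q6, a non-classical MHC class I gene (3.65), and Doc2b, a calcium sensor of vesicle release (3.64), closed the set. In the control the steps of the 12 genes lay between 3.25 (Klk1) and 5.82 (Cd74), and the difference between arms was called for none of them. The call for Doc2b (adjusted p = 0.0166) was lost with each of the 4 libraries left out in turn (adjusted p = 0.0521 to 0.121), and with a pseudocount of 0.1 those of Cd74 (0.0546) and H2-Q6 (0.109) were lost.

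**Figure D1:**
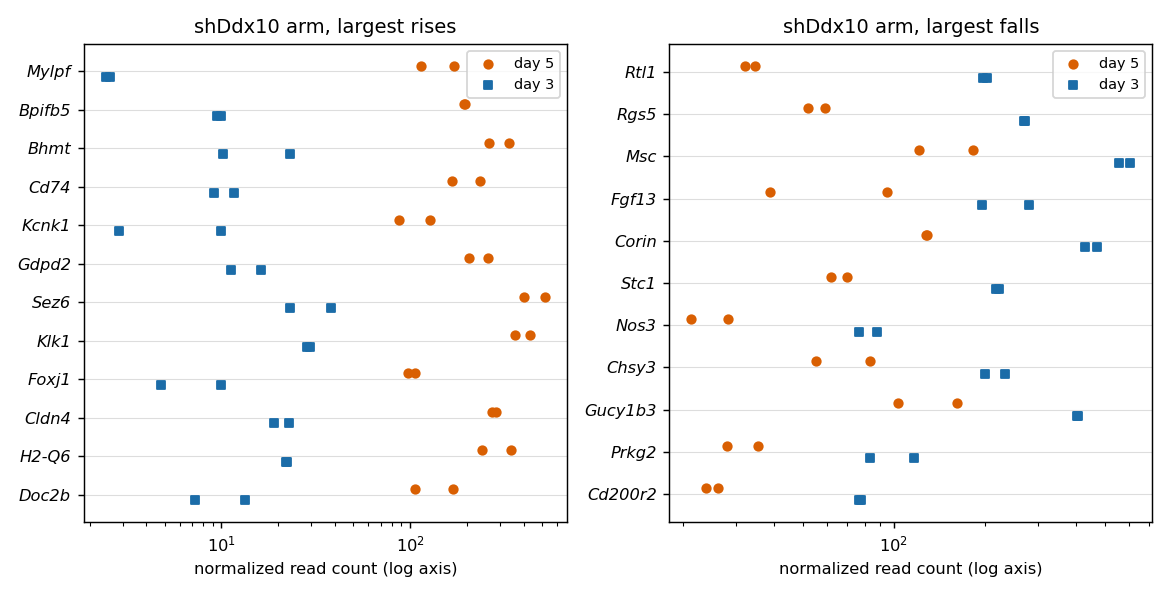
Normalized read counts (log axis) of the largest rises and largest falls in the 2 shDdx10 libraries of day 5 (circles) and the 2 of day 3 (squares). A second row of the symbol Map4, the largest fall, is left out. The genes were chosen for days that do not overlap, and the rises span wider gaps (Mylpf 115 and 170 against 2.58 and 2.43) than the falls (Rgs5 51.8 and 59.3 against 269 and 271).

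Apart from a second row that carries the symbol Map4, which fell most (by more than 4 on the log2 scale), the largest falls were smaller. Rtl1, an imprinted gene derived from a retrotransposon and needed in the placenta, stood at 34.8 and 32.3 at day 5, against 198 and 203 at day 3, a change of -2.54 ± 0.45 (SE, adjusted p = 0.00135). Rgs5, a brake on G protein signalling that marks pericytes, stood at 51.8 and 59.3 at day 5, against 269 and 271 at day 3 (change -2.26). Msc, the repressor musculin, stood at 121 and 183 at day 5, against 607 and 558 at day 3 (change -1.96). Here too the choice of genes fixes that the days do not overlap. Fgf13, an intracellular member of the FGF family (-1.93), Corin, the protease that activates natriuretic peptides (-1.79), and Stc1, a secreted glycoprotein hormone (-1.73), came next. Nos3, the endothelial nitric oxide synthase, stood at 21.4 and 28.2 at day 5, against 87.8 and 76.7 at day 3 (change -1.70), and Gucy1b3, a subunit of the guanylate cyclase that nitric oxide activates, stood at 104 and 162 at day 5, against 404 and 406 at day 3 (change -1.64). Chsy3, a chondroitin synthase (-1.65), Prkg2, a kinase that cyclic GMP activates (-1.61), and Cd200r2, of the CD200 receptor family (-1.59), were the others. The second Map4 row (ENSMUSG00000103508, absent from the annotation used) was at 0 and 0.672 at day 5, against 142 and 60.4 at day 3. It was at 165 and 67.3 at day 7, while the main Map4 row changed by -0.28 from day 3 to day 5. Left-out libraries ended the calls of Nos3 (any of the 4, adjusted p = 0.0876 to 0.184), Cd200r2 (day 3 replicate 1 or 2 or day 5 replicate 1, 0.0585 to 0.0664) and Prkg2 (day 3 replicate 2, 0.0621), and Fgf13 was lost when only the 4 compared libraries were fitted (0.0755).

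Epithelial genes were the list with the most rises. Of 44 genes for junctions, keratins and their regulators, 22 rose and 2 fell (54.5% called, against 14.9% of all genes), with a median change of 0.75, against 0.01 over all genes. Rab25, an epithelial recycling GTPase, stood at 58.4 and 44.0 at day 5, against 1.03 and 0.725 at day 3 (change 4.79 ± 0.50, SE, adjusted p = 1.66e-05). Cldn7 (4.29, not called with a pseudocount of 0.1, adjusted p = 0.0624), Cldn3 (2.30) and the tricellular junction gene Lsr (2.04) rose with Cldn4, while the splicing factor Esrp1, which sets epithelial isoforms, stood at 23.2 and 35.02 at day 5, against 0 and 3.08 at day 3 (change 3.87). Cdh1, which encodes E-cadherin, the adhesion molecule of epithelia, stood at 4514 and 4191 at day 5, against 1273 and 1389 at day 3 (change 1.71 ± 0.26, SE, adjusted p = 0.000715). Epcam, a surface protein of epithelia, stood at 1640 and 1634 at day 5, against 362 and 358 at day 3 (change 2.18). The day 5 libraries were the higher in each of these genes. Dsc2, a desmosomal cadherin (-0.74), and Perp, a desmosomal p53 target (-0.44), fell. In fits that left out 1 of the 4 libraries, 16 to 18 members rose, and the fall of Dsc2 was lost without day 3 replicate 1 (adjusted p = 0.0538), day 3 replicate 2 (0.0631) or day 5 replicate 2 (0.129), that of Perp without day 3 replicate 1 (0.0524).

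The keratins did not move together. Krt8 and Krt18 encode the type II and type I partners of the simple epithelial filament. Krt8 stood at 1266 and 1341 at day 5, against 519 and 470 at day 3, a change of 1.40 ± 0.13 (SE, adjusted p = 7.3e-06). Krt18 stood at 427 and 445 at day 5, against 421 and 433 at day 3, a change of 0.03 ± 0.15 (SE, adjusted p = 0.926). In the control, Krt18 stood at 917 and 885 at day 5, against 345 and 293 at day 3, a step of 1.5. The difference of the Krt18 steps, -1.47 ± 0.21 (SE), was called (adjusted p = 0.00954, limma), but not without day 3 replicate 1, day 3 replicate 2 or day 5 replicate 1 of the knockdown or day 5 replicate 1 of the control (0.0517 to 0.0631). Krt19, another simple keratin, stood at 489 and 520 at day 5, against 598 and 597 at day 3 (change -0.24, adjusted p = 0.22), while its control step was 0.76, and the difference was -1.001 (adjusted p = 0.0314, lost without any of the 8 libraries but control day 3 replicate 1, 0.0765 to 0.141). Krt7 rose by 1.78 in the knockdown.

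Pluripotency genes rose in part, some of them from levels near 0. Of 48 measured genes of the network, 17 rose and 2 fell (39.6% called, against 14.9% of all genes), with a median change of 0.72. Nanog, the transcription factor that marks the pluripotent state, stood at 48.5 and 41.5 at day 5, against 4.11 and 0.971 at day 3 (change 3.85 ± 0.60, SE, adjusted p = 0.000528). Dppa5a, an RNA-binding protein of embryonic stem cells, stood at 28.0 and 18.8 at day 5 and at 0 in both day 3 libraries (adjusted p = 6.43e-05). Gbx2, a homeobox factor of the naive state, stood at 79.4 and 89.1 at day 5, against 8.67 and 16.4 at day 3 (change 2.71). Both libraries of day 5 were above both of day 3 in all 3 genes. Tdh, the threonine dehydrogenase that feeds one-carbon metabolism in mouse stem cells, stood at 3006 and 2989 at day 5, against 1698 and 1585 at day 3 (change 0.87). Jarid2, a partner of Polycomb complex PRC2 (0.97), Klf2 (1.21) and Sall1 (1.45) rose as well, as did Dnmt3b, a de novo DNA methyltransferase counted in another list (144 and 160 at day 5, against 44.8 and 58.9 at day 3, change 1.55). Esrrb stood at 45.3 and 33.8 at day 5, against 8.24 and 6.998 at day 3 (change 2.22, adjusted p = 0.0323), and Sall4 at 239 and 271 at day 5, against 45.4 and 63.3 at day 3 (change 2.23, adjusted p = 0.0461).

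Many of these calls were lost with fewer libraries, at changes of similar size (2.02 to 2.43 for Esrrb, against 2.22 with all 4). When each library was left out in turn, 7 to 10 members rose, and 9 rose with a pseudocount of 0.1. Esrrb (adjusted p = 0.092 to 0.17), Sall4 (0.12 to 0.207), Tfcp2l1 (0.101 to 0.202), Nr5a2 (0.0639 to 0.118), Alpl (0.101 to 0.155) and Gdf3 (0.133 to 0.183) lost their calls with each library left out in turn, as did Etv4 (0.116 to 0.198), 1 of the 2 falls. The other fall, that of Spry4 (-0.32), was lost without day 3 replicate 1, day 3 replicate 2 or day 5 replicate 2 (0.0772 to 0.117). Zfp42, the stem cell marker also known as Rex1, stood at 165 and 162 at day 5, against 77.1 and 81.0 at day 3 (change 1.04, adjusted p = 0.0731). Lin28a stood at 1.53 and 2.28 at day 5, against 0.646 and 1.222 at day 3, and Dppa4 at 1.09 and 1.91 at day 5 and 0 in both day 3 libraries, so 2 further stem cell genes were near 0. The difference of the steps between arms was called for none of the 48 members.

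The 4 reprogramming factors all fell (7.20% of all genes fell). Pou5f1 (Oct4) stood at 14150 and 13585 at day 5, against 18474 and 17334 at day 3 (change -0.37 ± 0.06, SE, adjusted p = 0.000952). Sox2 changed by -0.39, Myc by -0.44 and Klf4 by -0.34, and their control steps were -0.60, -0.70 and -0.53. Pou5f1 had a control step of -0.32 and was the 1 factor of the 4 with the larger step in the knockdown. The difference between arms was called for none of the 4. Viral and endogenous transcripts of a factor are counted together here. Klf4 lost its call without day 3 replicate 1 (0.0782), day 3 replicate 2 (0.0733) or day 5 replicate 1 (0.144) and with quantile scaling (0.0734), and Myc without day 5 replicate 1 (0.0884).

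**Figure D2:**
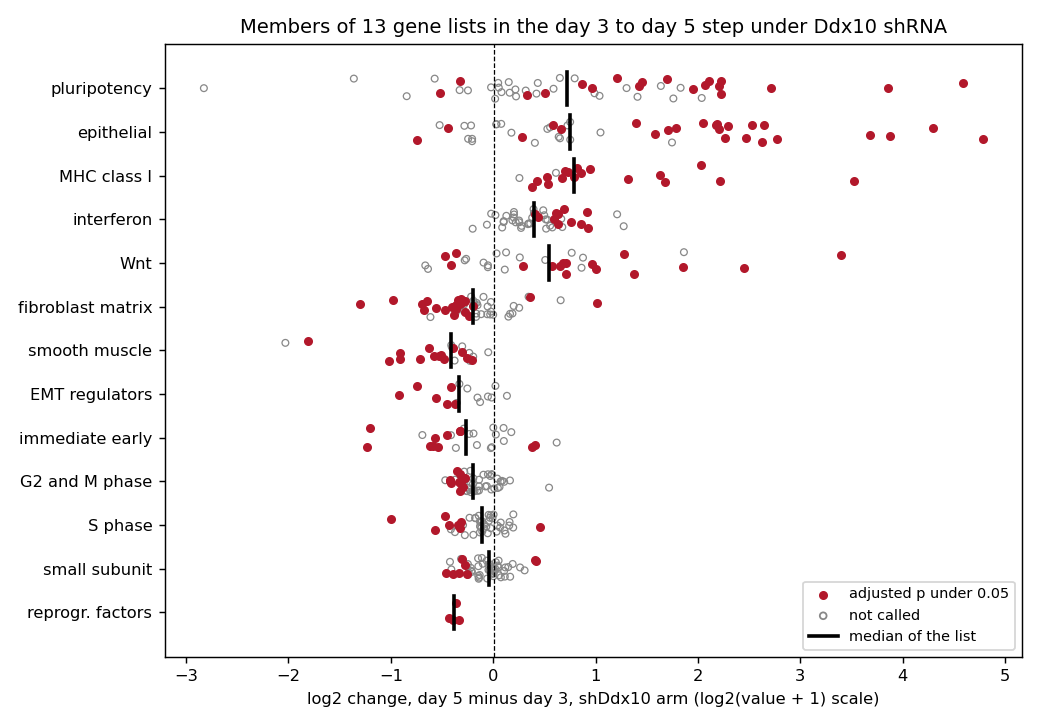
Change from day 3 to day 5 in the shDdx10 arm (log2, day 5 minus day 3) for the measured members of 13 gene lists, with called genes filled, other genes open, the median of each list as a black bar and the median of all genes as a dashed line. Epithelial and pluripotency members reach above 4, all MHC class I members lie above 0, and most called matrix, contractile and cell cycle members lie between 0 and -1.

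Antigen presentation by MHC class I was the list with the highest share of calls among those with more than 4 genes. MHC class I molecules show peptides, cut by the immunoproteasome and carried by the Tap transporter, at the cell surface, and their genes are induced by interferons. Of 19 genes, 17 rose and 0 fell (89.5% called, against 14.9% of all genes), with a median change of 0.79. H2-K1, a classical heavy chain, stood at 7131 and 8401 at day 5, against 1701 and 1624 at day 3 (change 2.22 ± 0.09, SE, adjusted p = 1.18e-09). H2-D1, the other classical chain, stood at 5933 and 6991 at day 5, against 2628 and 2536 at day 3 (change 1.32). B2m, the light chain that all class I molecules share, stood at 24969 and 26572 at day 5, against 15735 and 15264 at day 3 (change 0.73). The day 5 libraries were above the day 3 libraries in each. H2-Q4 (2.03) and H2-Q7 (3.53), further heavy chains, rose, as did the immunoproteasome subunits Psmb8 (1.63) and Psmb9 (1.68) and the transporter genes Tap1 (0.67) and Tap2 (0.85). Nlrc5, the transactivator of class I genes, stood at 702 and 899 at day 5, against 511 and 527 at day 3 (change 0.61, adjusted p = 0.242), and Psme1 changed by 0.26 (adjusted p = 0.0677). The H2 genes are near-identical copies, so the counting may have split reads among them and their single values are uncertain.

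In the 4 leave-one-out fits, 10 to 14 class I genes rose, the lowest count without day 5 replicate 2. Psmb9 lost its call without that library (adjusted p = 0.0655), H2-T23 without it (0.0547) or day 3 replicate 2 (0.0579). The class I steps were smaller in the knockdown than in the control in 16 of 19 genes, and the difference was called for 3: H2-D1 (1.32 against 2.16 in the control, difference -0.84 ± 0.11, SE, adjusted p = 0.00911), H2-T22 (0.82 against 1.61, difference -0.79, adjusted p = 0.0284) and H2-K1 (2.22 against 2.92, difference -0.70, adjusted p = 0.0332). Smaller steps were not particular to this list: over all genes the median absolute change was 0.217 in the knockdown and 0.299 in the control. At day 5 the control held 19603 and 17651 for H2-K1, so the knockdown libraries of that day stood lower. At day 3 H2-K1 was already lower in the knockdown (mean 1663, against 2464 in the control). Called below the control were 9 of the 19 genes at day 3 and 17 at day 5 (2.25% and 2.90% of all genes). Left-out libraries ended the difference of H2-D1 (knockdown day 3 replicate 1, 0.0517, or control day 5 replicate 1, 0.0546), of H2-T22 (any knockdown library but day 5 replicate 2 and any control library but day 5 replicate 2, 0.0632 to 0.141) and of H2-K1 (the same 6 libraries, 0.094 to 0.155).

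**Figure D3:**
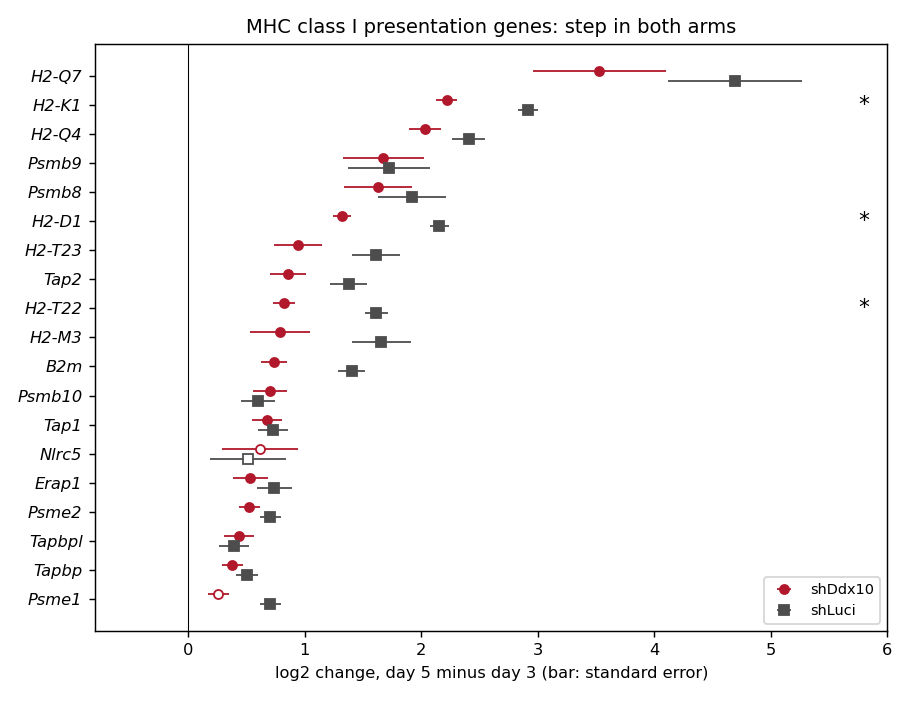
Change from day 3 to day 5 (log2, day 5 minus day 3) of the 19 MHC class I presentation genes in the shDdx10 arm (circles) and the shLuci arm (squares), with standard errors, open symbols for steps not called and asterisks for genes whose step differed between arms. The knockdown step is the smaller in 16 of 19 genes, and the asterisks stand at H2-K1 (2.22 and 2.92), H2-D1 (1.32 and 2.16) and H2-T22 (0.82 and 1.61). Over all genes the median absolute step is also smaller in the knockdown (0.217, against 0.299).

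The wider interferon targets had fewer calls. Of 46 interferon-stimulated genes, 11 rose and 0 fell (23.9% called, against 14.9% of all genes), with a median change of 0.40. This came after a median step of 2.92 from day 1 to day 3, in which 45 of 46 rose (18.0% of all genes rose in that earlier step). Ube2l6, the conjugating enzyme of the ubiquitin-like Isg15, stood at 1597 and 1787 at day 5, against 1009 and 987 at day 3 (change 0.76), and the ligase Herc6 at 1200 and 1180 at day 5, against 659 and 604 at day 3 (change 0.91). Isg15 itself stood at 2259 and 2373 at day 5, against 1695 and 1606 at day 3 (change 0.49, adjusted p = 0.357). Over the fits that left out 1 of the 4 libraries 2 to 6 members rose, the fewest without day 5 replicate 2. The count was 7 without the variance trend and 30 when the 4 libraries were fitted alone.

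The promoters of the class I genes are shown because these genes rose together, and interferon-responsive promoters carry a known element, the ISRE. The letters searched were GAAANNGAAA on both strands, with overlapping matches counted, in the 250 bases before and 50 bases after each gene's start (RefSeq, build GRCm38.p6). They were found in 5 of the 16 class I genes with a promoter in the table (31.2%: B2m, H2-T22, H2-T23, Psme1 and Erap1), in 18 of 34 interferon-stimulated genes (52.9%) and in 3.99% of all 27025 genes. A match is a description of the letters and not a shown site. In the sequences below the matched letters are in capitals, and they begin 139, 191 and 124 bases before the start of B2m, H2-T22 and H2-T23.
B2m (chr2:122147437-122147736, plus strand): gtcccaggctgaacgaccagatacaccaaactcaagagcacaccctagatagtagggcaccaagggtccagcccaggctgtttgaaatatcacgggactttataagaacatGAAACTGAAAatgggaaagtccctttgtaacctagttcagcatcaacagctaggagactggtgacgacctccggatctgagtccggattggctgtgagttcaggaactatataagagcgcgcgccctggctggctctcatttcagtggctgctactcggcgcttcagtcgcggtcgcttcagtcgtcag
H2-T22 (chr17:36042693-36042992, minus strand): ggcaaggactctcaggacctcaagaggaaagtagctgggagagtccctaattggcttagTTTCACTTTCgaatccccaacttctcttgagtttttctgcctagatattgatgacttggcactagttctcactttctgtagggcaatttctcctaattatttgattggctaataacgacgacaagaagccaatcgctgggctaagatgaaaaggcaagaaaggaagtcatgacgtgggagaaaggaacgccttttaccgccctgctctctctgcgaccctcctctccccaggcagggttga
H2-T23 (chr17:36032652-36032951, minus strand): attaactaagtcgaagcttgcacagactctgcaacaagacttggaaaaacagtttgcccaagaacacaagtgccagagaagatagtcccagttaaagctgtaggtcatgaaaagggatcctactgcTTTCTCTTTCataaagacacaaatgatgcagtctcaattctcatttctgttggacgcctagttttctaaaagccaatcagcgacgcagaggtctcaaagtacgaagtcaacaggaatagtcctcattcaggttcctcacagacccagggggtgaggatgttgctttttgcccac
Of these genes, H2-T22 stood at 2226 and 2420 at day 5, against 1307 and 1317 at day 3, and H2-T23 at 1318 and 1471 at day 5, against 763 and 686 at day 3. Both days were thus apart in both genes, as in B2m. The promoters of H2-K1 and H2-D1, whose changes were larger, do not hold these letters in this window, which says nothing of the factors that bind there. The search takes only these exact letters, and both windows hold the similar run tttcacttct. A window without a match may thus still hold an interferon-responsive element.

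Wnt signalling keeps beta-catenin from degradation and drives both targets and feedback inhibitors. Of 32 Wnt genes, 13 rose and 3 fell (50% called, against 14.9% of all genes), with a median change of 0.54. Among the feedback inhibitors, Nkd1 stood at 1600 and 1816 at day 5, against 128 and 202 at day 3 (change 3.40 ± 0.18, SE, adjusted p = 2.68e-08), and Rnf43, a ligase that removes Wnt receptors, stood at 358 and 234 at day 5, against 72.2 and 37.8 at day 3 (change 2.44). Znrf3, its relative, rose by 0.68. Among ligands and secreted inhibitors, Wnt5b rose by 1.37, Dkk2 by 0.71 and Sfrp1 by 0.71. The nuclear factor Lef1 stood at 171 and 162 at day 5, against 72.8 and 63.8 at day 3 (change 1.28), and Ctnnb1, beta-catenin itself, rose by 0.29. The day 5 libraries were the higher in all of these. Among receptors, Fzd7 (-0.47), Fzd1 (-0.41) and Lrp5 (-0.37) fell. The target Axin2 stood at 1210 and 1503 at day 5, against 689 and 782 at day 3 (change 0.88, adjusted p = 0.0677). In the leave-one-out fits, 11 to 13 members rose and 1 or 2 fell: Lrp5 lost its call each time (0.0576 to 0.148), and Fzd1 in all cases but day 5 replicate 2 (0.0589 to 0.125). No difference between the arms was called in this list.

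Sp5, a direct target of beta-catenin, stood at 62.3 and 63.0 at day 5, against 21.9 and 12.6 at day 3 (change 1.85 ± 0.33, SE, adjusted p = 0.00155). Its promoter is shown because it holds the letters CTTTGAT, a core that Tcf and Lef factors recognise, searched on both strands and with overlaps counted. They begin 104 bases before its start, in capitals.
Sp5 (chr2:70474673-70474972, plus strand): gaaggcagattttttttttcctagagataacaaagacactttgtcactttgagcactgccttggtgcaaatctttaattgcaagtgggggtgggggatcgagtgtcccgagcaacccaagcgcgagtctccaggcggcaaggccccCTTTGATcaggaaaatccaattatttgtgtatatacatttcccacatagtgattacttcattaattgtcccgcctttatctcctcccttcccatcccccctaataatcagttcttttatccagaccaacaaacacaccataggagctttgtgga
These letters were found in 2 of 20 Wnt genes with a promoter in the table (10%, the other being Wnt5b) and in 4.29% of all genes.

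Genes of the fibroblast state went down. Of 48 matrix genes, 19 fell and 2 rose (43.75% called, against 14.9% of all genes), with a median change of -0.20. Of 23 smooth muscle contractile genes 14 fell and 0 rose (60.9% called), with a median change of -0.41. Tnc, the matrix glycoprotein tenascin C, stood at 4182 and 4076 at day 5, against 10031 and 10302 at day 3 (change -1.30 ± 0.09, SE, adjusted p = 2.95e-07). Loxl2, which crosslinks collagen (-0.98), and Timp3, an inhibitor of matrix proteases (-0.64), fell. Tagln, an actin-binding protein of smooth muscle, stood at 183 and 225 at day 5, against 418 and 349 at day 3 (change -0.91), and the tropomyosins Tpm2 (516 and 459 at day 5, against 990 and 848 at day 3, change -0.91) and Tpm1 (-0.62) fell too. In these genes day 5 was the lower in both libraries. The major collagens changed less: Col1a1 by -0.16 (adjusted p = 0.383) and Col3a1 by -0.28 (0.114). Eln, elastin (1.02), and Col6a2 (0.36) were the 2 rises. Eln lost its call with each library left out in turn (0.0701 to 0.257) and with quantile scaling (0.0733), and Col6a2 without day 3 replicate 1 (0.168), day 5 replicate 1 (0.0713) or day 5 replicate 2 (0.133). Across the leave-one-out fits 5 to 9 matrix genes and 6 to 7 contractile genes fell, with 10 matrix falls under quantile scaling, and 12 matrix and 9 contractile falls without the variance trend.

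Regulators of the mesenchymal state followed. Among all genes 14.9% were called, against 34.8% of the TGF-beta genes and 40% of these regulators. Of 15 such genes, 6 fell and 0 rose (3 or 4 fell with each library left out in turn). Cdh2, N-cadherin, stood at 3080 and 3135 at day 5, against 3968 and 4079 at day 3 (change -0.37, adjusted p = 0.000678), and S100a4, a calcium-binding protein of fibroblasts, at 1159 and 1296 at day 5, against 2118 and 2003 at day 3 (change -0.75). Zeb1, a repressor of E-cadherin, changed by -0.25 (adjusted p = 0.0861) and Snai2 by -0.36 (0.16). Of 23 TGF-beta genes, a list that holds ligands, receptors and targets as well as inhibitors of the pathway, 7 fell and 1 rose. Fewer fell with each library left out in turn. Inhba, a subunit of activin, stood at 198 and 173 at day 5, against 307 and 315 at day 3 (change -0.75).

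Immediate early genes, which growth factor signals switch on within minutes, fell in part. In this list 42.3% were called, against 14.9% of all genes. Of 26 genes, 9 fell and 2 rose (3 to 5 fell with each library left out in turn), with a median change of -0.26. The AP-1 subunit Fosl1 stood at 317 and 347 at day 5, against 770 and 757 at day 3 (change -1.201 ± 0.15, SE, adjusted p = 6.76e-05). Jun stood at 2365 and 2472 at day 5, against 3332 and 3297 at day 3 (change -0.45). Dusp4, a phosphatase that limits ERK signalling, stood at 1837 and 1805 at day 5, against 2711 and 2766 at day 3 (change -0.59). Jund, an AP-1 subunit, moved the other way, with 3127 and 3002 at day 5, against 2329 and 2286 at day 3 (change 0.41). The 2 days did not overlap in any of the 4 genes.

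The arms differed in this list: 5 of 26 genes had a step called more positive in the knockdown. Egr1, a zinc finger factor of the early response, stood at 1810 and 1633 at day 5 and 1769 and 1701 at day 3 in the knockdown, and at 893 and 1038 at day 5 and 2754 and 2683 at day 3 in the control. Its knockdown step was -0.01 and its control step -1.496 (difference 1.48 ± 0.21, SE, adjusted p = 0.00954). Fos stood at 457 and 422 at day 5 and 661 and 685 at day 3 in the knockdown, and at 274 and 368 at day 5 and 1272 and 1233 at day 3 in the control (difference 1.36 ± 0.23, SE, adjusted p = 0.0268). At day 3 the knockdown was the lower and at day 5 the higher in both genes. The differences of Ier2 (0.82, adjusted p = 0.0268), Dusp6, a phosphatase of ERK (0.70, 0.0131), and Dusp4 (0.63, 0.0332) were also called. Across all genes 0.0952% were called in this direction. Dusp4 lost the difference with each of the 8 libraries left out in turn (0.078 to 0.148), Fos without any but control day 5 replicate 2 (0.06 to 0.124), Ier2 with each but day 3 and day 5 replicates 2 of the control (0.0733 to 0.117), Dusp6 without replicate 1 of control day 3, control day 5 or knockdown day 5 or either knockdown library of day 3 (0.0517 to 0.0874), and Egr1 without either knockdown library of day 3, knockdown day 5 replicate 1 or control day 5 replicate 1 (0.0517 to 0.0817).

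**Figure D4:**
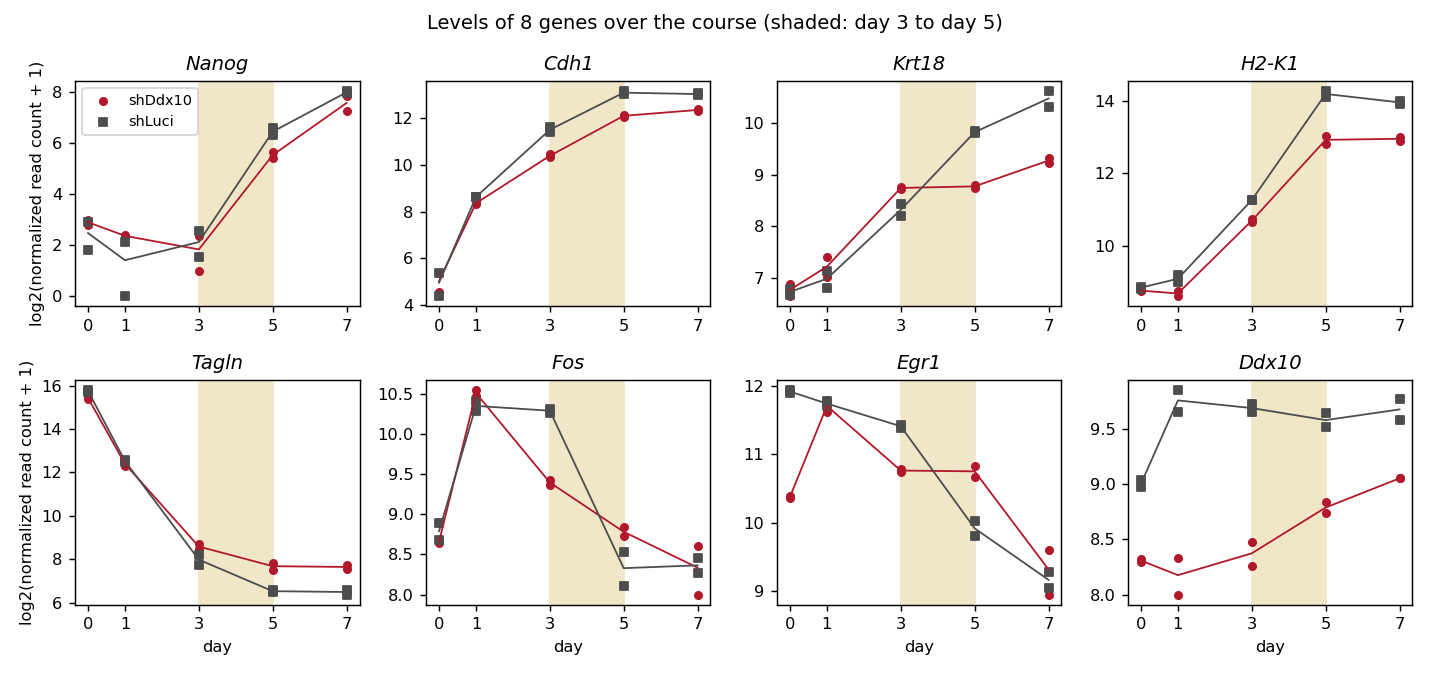
Levels (log2 of the normalized read count + 1) of 8 genes at days 0, 1, 3, 5 and 7 in the shDdx10 arm (circles) and the shLuci arm (squares), 2 libraries each with lines through the mean levels. Between days 3 and 5 (shaded) Nanog, Cdh1 and H2-K1 go up in both arms, Krt18 and Egr1 stay level in the knockdown while they go up or down in the control, and Ddx10 stays below the control.

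Fewer proliferation genes fell than in the control step. Falls were also fewer over all genes (7.20% in the knockdown and 15.4% in the control). In the knockdown 17.4% of the S phase genes and 20.8% of the G2 and M genes were called, against 14.9% of all genes. Of 48 genes of the G2 and M phases, 10 fell and 0 rose, with a median change of -0.20, against 35 falls and a median of -0.54 in the control step, and of 46 S phase genes 7 fell and 1 rose, against 33 falls and 1 rise in the control step. The difference of the steps was called for none of the genes in either list. Cdc20, an activator of the anaphase-promoting complex, stood at 1330 and 1246 at day 5, against 1728 and 1713 at day 3 (change -0.42 ± 0.08, SE, adjusted p = 0.00224). Ccne1, cyclin E1, stood at 571 and 629 at day 5, against 888 and 885 at day 3 (change -0.56), and Rrm2, the ribonucleotide reductase subunit, fell by 0.47 on the log2 scale. Ccnb1, cyclin B1, stood at 1592 and 1690 at day 5 and 1573 and 1517 at day 3 (change 0.09, adjusted p = 0.663). At day 3 the knockdown already had 25 of the 48 G2 and M genes called below the control, and at day 5 it had 2 (2.25% and 2.90% of all genes were called lower on those days). The leave-one-out fits called lower 3 to 5 G2 and M genes and 2 to 6 S phase genes.

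Growth arrest genes moved both ways. Of 29 CDK inhibitors and p53 targets, 5 rose and 8 fell (44.8% called, against 14.9% of all genes). Cdkn1b, the inhibitor p27, stood at 1005 and 1015 at day 5, against 643 and 660 at day 3 (change 0.63 ± 0.11, SE, adjusted p = 0.00117), and Sesn1, a stress-induced p53 target, rose by 0.52. Mdm2, the ligase that degrades p53 and is itself its target, stood at 5223 and 4852 at day 5, against 7465 and 7169 at day 3 (change -0.54), and Cdkn1c, the inhibitor p57, fell by 0.76 on the log2 scale. Of 27 senescence genes, mainly for secreted factors, 9 fell and 3 rose (44.4% called). Igfbp7 (358 and 405 at day 5, against 748 and 703 at day 3, change -0.93) and Igfbp3 (-0.54) fell, and Igfbp2 (295 and 313 at day 5, against 78.8 and 52.9 at day 3, change 2.22) rose; all 3 bind insulin-like growth factors. With each library left out in turn 4 to 7 arrest genes and 4 to 6 senescence genes fell.

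Ribosome assembly, the process in which Ddx10 acts, changed little. Of 54 genes for the small subunit 6 fell and 2 rose, and 1 of these rises was Ddx10 itself (14.8% called, close to the 14.9% of all genes). The median change was -0.04. Utp11l, of the small subunit processome, stood at 476 and 568 at day 5, against 732 and 696 at day 3 (change -0.46, adjusted p = 0.00507), Nop14 fell by 0.33 on the log2 scale, and Imp3, another processome member, had 665 and 698 at day 5, against 540 and 484 at day 3 (change 0.41, adjusted p = 0.0469). Of 50 large subunit genes 2 fell and 0 rose, and of 27 genes of RNA polymerase I and the nucleolus 3 fell and 1 rose. With each library left out in turn 0 to 2 large subunit genes and 1 gene of the polymerase I list fell, as did 0 and 1 with quantile scaling. Ncl, nucleolin, stood at 12396 and 13470 at day 5, against 16174 and 16970 at day 3 (change -0.36, adjusted p = 0.00247), and Ubtf, the activator of ribosomal DNA transcription, rose by 0.29. In the control step, 20 small subunit and 17 large subunit genes fell (15.4% of all genes fell in that step). The difference between arms was called for none of the genes in these 3 lists. Utp11l lost its call without day 3 replicate 1 (0.0522) or day 5 replicate 1 (0.0852), Nop14 without day 3 replicate 2 (0.179) or day 5 replicate 1 (0.223), Imp3 with each library left out in turn (0.0846 to 0.264), and the count of small subunit falls was then 0 to 5.

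Among the other lists, writers and erasers of DNA methylation had 5 rises and 1 fall of 17 (3 to 5 rises with each library left out in turn), with Apobec1 (1001 and 907 at day 5, against 449 and 336 at day 3, change 1.29) and Gadd45b (1.17), which are linked to demethylation, beside Dnmt3b. Of 20 iron and redox genes 4 rose and 1 fell, led by Slc40a1, the iron exporter ferroportin (611 and 524 at day 5, against 195 and 212 at day 3, change 1.47), and Tfrc, the transferrin receptor (1.202). Glycolysis and hypoxia targets had 4 rises and 4 falls of 30 (2 or 3 rises and 1 fall with each library left out in turn), with Aldoc, an aldolase, at 628 and 621 at day 5, against 182 and 157 at day 3 (change 1.88), and the peptide hormone Adm at 181 and 183 at day 5, against 355 and 363 at day 3 (change -0.97). Imprinted growth genes had 2 rises and 5 falls of 21 (3 or 4 falls with each library left out in turn): Peg10, derived from a retrotransposon, stood at 4184 and 3578 at day 5, against 1142 and 1138 at day 3 (change 1.76). In the stress response list 4 of 35 rose and 3 fell (1 or 2 rises with each library left out in turn and 8 with quantile scaling), the amino acid transporter Slc7a5 by -0.66 and the mTOR inhibitor Ddit4 by 0.66. Cholesterol synthesis genes had 1 rise and 6 falls of 27 (2 or 3 falls with each library left out in turn). Polycomb and H3K9 enzymes had 4 rises and 2 falls of 29 (1 or 2 rises with each library left out in turn), BMP genes 2 and 1 of 20, germline genes 1 and 1 of 12, and nuclear oxidative phosphorylation 0 and 1 of 36. Of the 31 Hox genes 0 were called in either direction (limma), and 2 had an unadjusted p under 0.05. Over all genes 14.9% were called. Closest to that share were the BMP (15%), germline (16.7%), stress response (20%) and Polycomb (20.7%) lists. The shares were 25% for iron and redox, 25.9% for cholesterol synthesis, 26.7% for glycolysis and hypoxia, 33.3% for imprinted and 35.3% for DNA methylation genes. For nuclear oxidative phosphorylation the share was 2.78%.

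Marker lists of other cell types were read beside these changes, and their part in the results was not tested. Over all genes 7.72% rose and 7.20% fell. Of 17 macrophage and blood markers 0 rose and 1 fell (Cd68, lost without day 5 replicate 1, adjusted p = 0.0572), and their summed level was 1335 to 1336 at day 5 and 1404 to 1488 at day 3. The defining genes Tyrobp, Cx3cr1 and C1qa were at most 1.33 in each of the 4 libraries. Endothelial markers had 0 rises and 2 falls of 10 (summed 3911 to 4054 at day 5 and 3944 to 4048 at day 3), with Cdh5 at 20.2 to 25.9 at day 5. Of 13 neural markers 1 rose (Neurog2, 2.55, not called with a pseudocount of 0.1, adjusted p = 0.068) and 5 fell (Nefl by -1.02, Tubb3 by -0.77; 3 to 5 fell with each library left out in turn), and their sum was 13630 to 13757 at day 5 and 19448 to 19779 at day 3. Keratinocyte markers had 1 rise and 2 falls of 11 (1193 to 1271 at day 5 and 1285 to 1302 at day 3), trophoblast markers 2 and 1 of 8 (1111 to 1182 at day 5 and 1380 to 1656 at day 3), endoderm markers 0 and 2 of 11 (32326 to 33348 at day 5 and 39054 to 39423 at day 3), adipocyte markers 0 and 1 of 4 (Lpl at -1.35, sum 894 to 928 at day 5 and 2159 to 2166 at day 3) and skeletal muscle markers 1 and 2 of 5 (Mylpf being the rise, sum 593 to 620 at day 5 and 709 to 751 at day 3). No sum was higher at day 5 in both libraries.

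Most called genes moved in the same direction as in the control, and fewer were called. The control step had 2508 rises (15.9%) and 2423 falls (15.4%), 4931 calls in all (31.3%), from the same number of libraries. No library is shared between the steps. Of the 2351 genes called in the knockdown, 1958 (83.3%) were also called in the control, which is 39.7% of the control's calls, and 1955 of these had the same sign. The median absolute change over all genes was 0.217 in the knockdown and 0.299 in the control, and across genes, which are not independent replicates, the steps correlated at Pearson's r = 0.734 and Spearman's rho = 0.672. As a description with no test, on a line from the mean of control day 0 (at 0) to that of control day 7 (at 1), the knockdown libraries stood at 0.853 and 0.843 at day 5 and 0.673 and 0.672 at day 3, and the control libraries at 0.944 and 0.922 at day 5 and 0.710 and 0.725 at day 3. The knockdown libraries thus stood lower than the control libraries on both days. At day 0 they stood higher (0.052 and 0.043, against -0.0003 and 0.0003 in the control, whose mean sets the 0 of the line). At day 1 the arms overlapped (0.372 and 0.387, against 0.358 and 0.377 in the control). Set against the control of the same day, 919 genes were higher (5.83%) and 457 lower (2.90%) in the knockdown at day 5 (8.73% called), and 396 higher (2.51%) and 355 lower (2.25%) at day 3 (4.77% called). The genes called in both arms with opposite signs were Ndufa5, Sat1 and Cdca7.

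A test of the difference between the steps called 35 genes (0.222%), 15 more positive (0.0952%) and 20 more negative (0.127%) in the knockdown, and 1706 genes had an unadjusted p under 0.05. In 33 of the 35 the step was the smaller in the knockdown, 20 where the control step was positive and 13 where it was negative. The signs of the steps agreed in 29. Stmn2, a regulator of neuronal microtubules, stood at 924 and 933 at day 5 and 1490 and 1503 at day 3 in the knockdown, and at 542 and 656 at day 5 and 1913 and 1870 at day 3 in the control (difference 0.98 ± 0.12, SE, adjusted p = 0.00639). Fgfbp1, a carrier that releases FGF from the matrix, stood at 1153 and 1147 at day 5 and 858 and 823 at day 3 in the knockdown, and at 1953 and 1879 at day 5 and 697 and 709 at day 3 in the control (difference -0.99 ± 0.13, SE, adjusted p = 0.00744). Gpnmb, a lysosomal membrane glycoprotein, stood at 2214 and 2217 at day 5 and 1604 and 1606 at day 3 in the knockdown, and at 2816 and 2827 at day 5 and 1205 and 1130 at day 3 in the control (difference -0.81). In the knockdown each of these genes thus moved in the control's direction by less. They were the 3 of the 35 whose difference was called with each of the 8 libraries left out in turn, and Gpnmb was chosen for that after its values were seen.

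The other differences named by size, among genes whose knockdown days did not overlap (so without Egr1 and Krt18), were less firmly called. Among the negative ones, Plac8, a small cysteine-rich protein, rose by 2.40 in the knockdown and 3.95 in the control (difference -1.55, adjusted p = 0.015), and Atp1b1, a subunit of the sodium pump, stood at 856 and 809 at day 5 and 145 and 168 at day 3 in the knockdown, and at 2342 and 2279 at day 5 and 173 and 177 at day 3 in the control (difference -1.31, adjusted p = 0.00954). The chemokine Cxcl14 (-1.28) and the ubiquitin ligase Fbxo32 (-1.19) had smaller rises as well, that of Cxcl14 being lost with each knockdown library left out in turn (0.0673 to 0.122). Among the positive ones, the protease Plau (lost in the knockdown without day 3 replicate 1, 0.0601, or day 5 replicate 2, 0.0969) fell by 0.66 on the log2 scale in the knockdown and by 1.86 in the control (difference 1.201, adjusted p = 0.0314). The steps of the calcium channel Cacna1c (difference 1.16), the chaperone Hspa12b (0.95) and E2f8, a repressor of cell cycle genes (0.90), were also less negative. The knockdown step of Cacna1c was not called (adjusted p = 0.159, limma), and that of Hspa12b was near the threshold (0.048). Each of these 8 lost its call without at least 2 of the 8 libraries, from 2 for Atp1b1 to all 8 for Cacna1c. The differences were then of similar size (-1.41 to -1.61 for Plac8 where its call was lost).

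Larger steps in the knockdown were seen in 2 genes. Hmgb2, a chromatin protein of dividing cells, stood at 2673 and 2835 at day 5 and 2006 and 1992 at day 3 in the knockdown, and at 3246 and 3213 at day 5 and 3417 and 3639 at day 3 in the control (difference 0.59, adjusted p = 0.0344). Cdca7, a gene that Myc activates, stood at 715 and 629 at day 5 and 448 and 479 at day 3 in the knockdown, and at 633 and 617 at day 5 and 745 and 827 at day 3 in the control (difference 0.86, adjusted p = 0.0332). At day 3 both were below the control. Hmgb2 lost the call with each of the 8 libraries left out in turn (0.0648 to 0.147), Cdca7 without any but knockdown day 5 replicate 2 (0.0647 to 0.155), and the knockdown step of Cdca7 was not called without day 5 replicate 1 (0.0611). With quantile scaling 35 genes were more positive and 27 more negative, so 56.5% of the calls were positive, against 42.9% without it. With each of the 8 libraries left out in turn there were 1 to 20 positive and 3 to 15 negative calls.

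**Figure D5:**
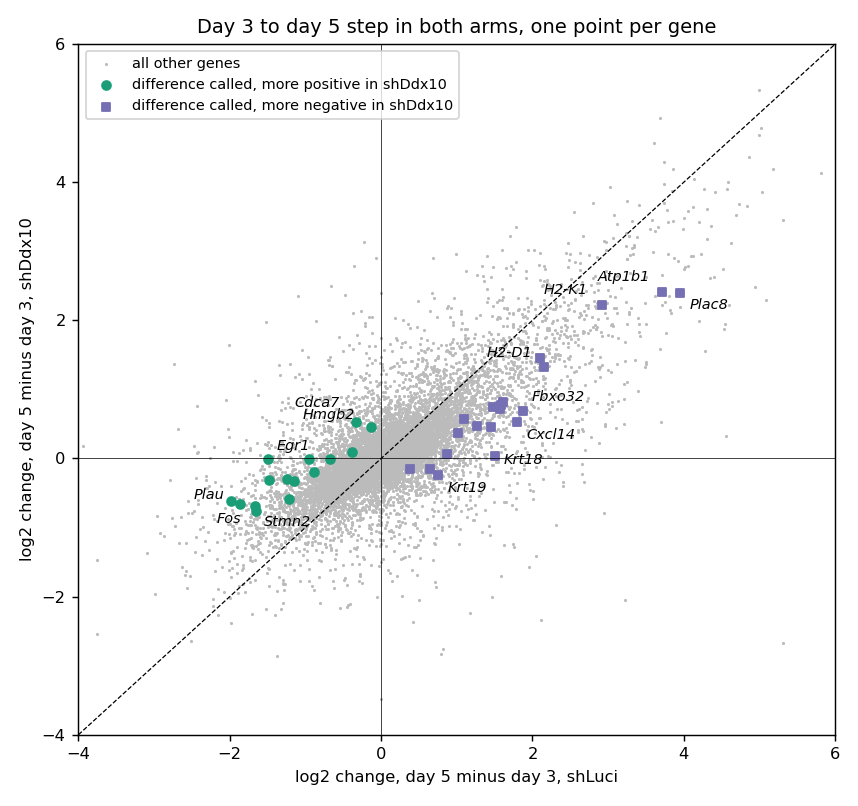
Change from day 3 to day 5 (log2, day 5 minus day 3) in the shDdx10 arm (vertical) against the shLuci arm (horizontal), one point per gene, with the 15 genes more positive (circles) and the 20 more negative (squares) in the knockdown in colour and equal steps on the dashed line (3 genes lie outside the axes). The coloured genes lie nearer to a knockdown change of 0 than the line in 33 of 35 cases, with Hmgb2 and Cdca7 the others.

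The neighbouring steps of the knockdown arm, which share libraries with this step, are given side by side. From day 1 to day 3, 2840 genes rose and 2255 fell (32.3% called), and from day 5 to day 7, 19 rose and 17 fell (0.228%). In the epithelial list 23, 22 and 1 of 44 genes rose in the steps to day 3, day 5 and day 7. In the pluripotency list 21, 17 and 4 of 48 rose, in the class I list 18, 17 and 0 of 19, and in the interferon list 45, 11 and 0 of 46. Falls numbered 44, 10 and 0 of 48 in the G2 and M list and 21, 14 and 0 of 23 in the contractile list. Nanog stood at 226 and 151 at day 7 and Esrrb at 283 and 186, both above their day 5 libraries.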

How the data were processed

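Per the labels' protocols, RNA was extracted with TRIzol, made into mRNA libraries and sequenced from both ends on a HiSeq instrument. Per the submitters' processing notes, the build was mm10 and the tools named, in no stated order, include the quantifier RSEM 1.2.22, the aligner STAR 2.5.2a, DESeq2 1.22.0 and the trimmer Trim Galore 0.4.4. The deposited values are a signal, read counts normalized between libraries by the authors in a way not given in the sources used here. Between 46.1% and 63.5% of the low values lay within 0.1 of a whole number of steps, so whole reads were not recovered, no count test was run, and depth is an estimate.

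Here log2(value + 1) was fitted in limma 3.58.1 (R 4.3.3), with variance trend and robust moderation, to all 20 libraries as 10 group means (10 residual degrees of freedom). P-values were adjusted by Benjamini-Hochberg over 15757 genes with a threshold of 0.05; the difference is the knockdown step minus the control step. A filter of at least 1 in at least 2 libraries removed 0 genes. The fit was tested on simulated data.

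Of the identifiers, 15665 (99.4%) matched GENCODE names. The text names Ddx10, the 12 largest rises and falls (mean of at least 50, days not overlapping) and the 6 largest differences each way. The differences were taken by the same filters, the days of the knockdown not overlapping. Of each list it names the members with the smallest p, with further members chosen after their values were seen. The members and the 37 lists were chosen with earlier results of these data known. Alternatives were other scalings, pseudocounts, filters and variance models, a replicate block, and each library left out in turn.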

Additional observations from a re-analysis of the deposited data

Results flagged for a closer look

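The step from day 3 to day 5 differed between the knockdown and control arms, by the test of the difference itself (limma, adjusted p under 0.05), in 35 genes, and the values below are knockdown minus control on the log2 scale. More negative in the knockdown were Plac8 (-1.55), Krt18 (-1.47), Atp1b1 (-1.31), Cxcl14 (-1.28), Fbxo32 (-1.19), Krt19 (-1.001), Fgfbp1 (-0.99), Prom1 (-0.86), H2-D1 (-0.84), Gpnmb (-0.81), Rragd (-0.80), Kctd12 (-0.80), Fst (-0.80), H2-T22 (-0.79), Hspb1 (-0.74), H2-K1 (-0.70), Ly6a (-0.65), Pcx (-0.64), Sdc4 (-0.53) and C1ra (-0.52). More positive were Egr1 (1.48), Fos (1.36), Plau (1.201), Cacna1c (1.16), Stmn2 (0.98), Dna2 (0.96), Hspa12b (0.95), E2f8 (0.90), Cdca7 (0.86), Ier2 (0.82), Dusp6 (0.70), Usp10 (0.66), Dusp4 (0.63), Hmgb2 (0.59) and Arhgef1 (0.48). With each of the 8 libraries left out in turn, 3 of the 35 were called every time.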

How the results depend on the processing

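The knockdown counts of 1216 rises and 1135 falls stayed within 1.5 times under each of the 9 alternatives that kept the 4 libraries (975 to 1646 rises and 966 to 1635 falls). Among these, the fit with no filter could not differ, since the filter removed 0 genes. Median-of-ratios rescaling of the already normalized values gave the same counts. With each library left out in turn, the knockdown step had 605 to 659 rises and 538 to 623 falls, the control step 1599 to 1795 rises and 1638 to 1784 falls, and the difference 1 to 20 more positive and 3 to 15 more negative genes. The count of more positive differences (15) was 35 with quantile scaling, 8 without the variance trend and 29 when only the compared libraries were fitted, and the count of more negative ones (20) was then 35; the cause was not tested. Same-numbered libraries of days 3 and 5 did not deviate together (correlation -0.011 in the knockdown and -0.061 in the control). With 2 libraries a group this cannot show whether same-numbered samples were made together. A fit with the replicate number as a block gave 1157 rises and 1051 falls in the knockdown, 2429 and 2356 in the control, and 14 more positive and 15 more negative differences. With 2 libraries a day, single genes near the threshold and low genes such as Esrrb are the least certain.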
